A study of Homo sapiens with 2 samples.

Results

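The regions described here are exitron-like segments: stretches inside an exon of an annotated Ensembl transcript that at least 1 isoform built from the library leaves out, as if they were introns. They are the intron retention events in which the form that keeps the segment is carried by an annotated transcript and the form without it is carried by library isoforms alone. The rule gave 2430 of 12224 intron retention events in the DCRT-KO list, or 19.9% (exact 95% interval 19.2 to 20.6), and 2544 of 12401 in the WT list, or 20.5% (19.8 to 21.2). Among events with at least 2 library isoforms on the spliced form they made up 2.80% in DCRT-KO and 2.76% in WT. Counted by position, these were 2428 distinct segments in DCRT-KO and 2539 in WT, 4791 over both lists, in 1789 genes. Both libraries came from AC16, an established line of human cells whose labels call them cardiomyocytes. CRISPR-Cas9 had been used to knock out the long non-coding RNA gene DCRT in the DCRT-KO cells, and the WT cells were unedited. There was 1 library of each genotype, so no difference between them has a replicate check and no test was made. Whether the knockout cells were 1 clone is not given in the sources used here, and no gene in the tables carries the symbol DCRT, so the knockout label was not checked. The deposited tables cover alternative splicing of 5 types and name the isoforms that carry each form, but hold no read counts or inclusion levels.

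An exitron is an intron that lies within an exon, often a coding one, so that the same bases are protein-coding sequence in some transcripts and are spliced out of others. The spliceosome marks an intron by a donor site that nearly always starts with GT and an acceptor site that nearly always ends with AG, with a stretch rich in C and T before the acceptor. Removal of a segment whose length is a whole number of codons shortens the protein without shifting its reading frame. Where the same bases stand at both ends of a segment, a direct repeat, the junction can be placed at several positions that give the same RNA. Direct repeats at such ends are also known from template switching of reverse transcriptase during cDNA synthesis, whose part in these lists was not tested.

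The lists hold segments of both kinds, and the sequences of a few show the contrast. All are GRCh38 sequence on the transcript strand, read from GENCODE v29 transcripts and printed 5′ to 3′. The first set has the ends of ordinary introns inside coding exons. In these lines the capitals mark the end bases of the segment, GT and AG, and 10 exon bases stand on each side. EIF4G2 encodes a translation initiation factor of the eIF4G family, HIF1A the oxygen-regulated subunit of the transcription factor HIF-1, and POLR3C a subunit of RNA polymerase III.

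EIF4G2, 75 bases, chr11:10800169-10800243, minus strand: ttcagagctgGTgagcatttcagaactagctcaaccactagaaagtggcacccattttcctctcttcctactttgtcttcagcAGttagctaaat
HIF1A, 84 bases, chr14:61727511-61727594, plus strand: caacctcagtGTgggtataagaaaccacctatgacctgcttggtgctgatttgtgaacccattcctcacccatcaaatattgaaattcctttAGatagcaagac
POLR3C, 113 bases, chr1:145826493-145826605, plus strand: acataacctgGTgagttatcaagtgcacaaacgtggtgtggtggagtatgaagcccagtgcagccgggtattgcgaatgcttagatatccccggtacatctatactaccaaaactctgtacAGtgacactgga

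The second set has ends other than GT-AG. As listed, they are GT-TG in HNRNPK, TC-TG in ACTG1, and GC-AG, the commonest variant of ordinary ends, in EIF3A and UBB. Here the capitals mark both copies of the direct repeat, with exon bases on either side. Leaving out the bases from any letter of the first copy up to the same letter of the second gives the same RNA, so the segment has no fixed start within the copies. HNRNPK encodes an RNA-binding protein of the hnRNP family, ACTG1 cytoplasmic gamma actin, EIF3A the largest subunit of the initiation factor eIF3, and UBB a chain of ubiquitin units that is cut into ubiquitin. EIF3A and UBB were picked after their values were seen, as coding segments with long repeats. The EIF3A and UBB segments printed here were listed in DCRT-KO alone, with 1 spliced isoform each. Retaining isoforms in DCRT-KO numbered 9 for EIF3A and 0 for UBB.

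HNRNPK, 132 bases, chr9:83971994-83972125, minus strand: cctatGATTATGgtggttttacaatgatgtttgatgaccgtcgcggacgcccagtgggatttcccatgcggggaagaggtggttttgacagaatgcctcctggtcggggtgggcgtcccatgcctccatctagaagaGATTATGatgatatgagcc
ACTG1, 63 bases, chr17:81510951-81511013, minus strand: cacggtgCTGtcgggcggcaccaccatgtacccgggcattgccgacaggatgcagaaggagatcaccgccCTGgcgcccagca
EIF3A, 60 bases, chr10:119042221-119042280, minus strand: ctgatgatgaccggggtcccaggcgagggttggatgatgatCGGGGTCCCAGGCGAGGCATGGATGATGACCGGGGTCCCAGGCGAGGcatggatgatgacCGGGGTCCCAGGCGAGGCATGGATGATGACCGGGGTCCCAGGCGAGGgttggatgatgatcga
UBB, 228 bases, chr17:16381989-16382216, plus strand: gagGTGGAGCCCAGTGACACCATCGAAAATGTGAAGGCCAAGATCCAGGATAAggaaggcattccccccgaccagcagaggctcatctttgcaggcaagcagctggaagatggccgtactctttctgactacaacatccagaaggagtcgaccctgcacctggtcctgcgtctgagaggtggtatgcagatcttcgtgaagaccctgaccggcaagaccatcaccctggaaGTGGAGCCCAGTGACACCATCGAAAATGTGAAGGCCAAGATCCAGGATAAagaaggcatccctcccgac

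Most of the segments did not have the ends of ordinary introns. The end bases could be read for 2399 segments in DCRT-KO and 2476 in WT, and GT-AG ends were found in 389 of the DCRT-KO segments, or 16.2% (14.8 to 17.8), and in 348 of the WT segments, or 14.1% (12.7 to 15.5). Among the segments spliced in at least 2 library isoforms the share was 48.0% (37.8 to 58.3) in DCRT-KO, on 98 segments read, and 40% (29.8 to 50.9) in WT, on 90. In the retention events of the same lists in which both forms are annotated, the share was 97.2% (94.8 to 98.6) in DCRT-KO and 97.3% (94.8 to 98.8) in WT. Where only the spliced form is annotated it was 98.3% in DCRT-KO and 98.6% in WT, and where neither form is annotated it was 40.8% (39.3 to 42.3) in DCRT-KO and 35.1% (33.7 to 36.6) in WT. Ends could be read only within exons of v29, which covered 37.4% of the events with only the spliced form annotated in DCRT-KO and 35.7% in WT. For events with neither form annotated this was 62.8% in DCRT-KO and 63.4% in WT. For those with both forms annotated it was 89.3% in DCRT-KO and 86.9% in WT, against 98.7% in DCRT-KO and 97.3% in WT for the exitron-like segments. Among the events read, the intervals of the exitron-like segments lie far below those of all 3 other classes in both libraries, while those of DCRT-KO and WT overlap each other. However, 2 of these classes hold annotated introns by definition, so the gap to them is tied to the annotation status that the rule used. Only the class with neither form annotated is free of that condition. GC-AG, the commonest variant of ordinary ends, made up a further 6.75% in DCRT-KO and 6.38% in WT, and AT-AC, the ends of some minor introns, 1.96% in DCRT-KO and 2.22% in WT. Ends other than GT-AG were spread over 220 combinations in DCRT-KO and 217 in WT of 255 possible, among which CC-AG held 3.50% of the segments in DCRT-KO and 2.91% in WT. Moving each junction within its repeat added 1 GT-AG segment in DCRT-KO and 0 in WT. The exact intervals treat events as independent and cover counting error only, although segments of a gene share isoforms.

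**Figure D1:**
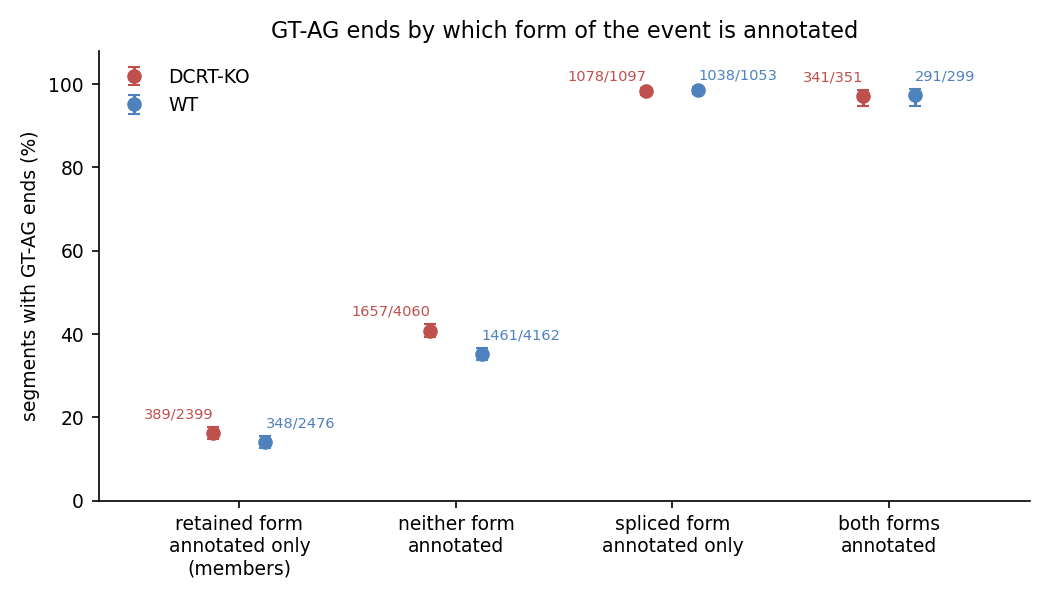
Percentage of segments with GT-AG ends (vertical axis) by which form of the intron retention event is annotated (horizontal axis), in DCRT-KO (red, left) and WT (blue, right). Points are shares of the segments whose ends could be read, bars are exact 95% intervals, and the numbers give GT-AG segments of all segments read. The exitron-like segments sit at 16.2% in DCRT-KO and 14.1% in WT, and events with neither form annotated at 40.8% in DCRT-KO and 35.1% in WT. Classes with an annotated spliced form, which hold annotated introns by definition, sit above 97% in both.

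The GT-AG segments carried the usual splice site letters less often than introns with both forms annotated. A donor that starts with GTAAG or GTGAG, the letters that pair best with U1 snRNA, stood at 26.5% of the GT-AG segments (22.2 to 31.2) in DCRT-KO and 19.5% (15.5 to 24.1) in WT. In GT-AG introns with both forms annotated it stood at 46.3% (40.9 to 51.8) in DCRT-KO and 45.4% (39.5 to 51.3) in WT. In GT-AG events with neither form annotated it stood at 40.3% (37.9 to 42.7) in DCRT-KO and 41.3% (38.8 to 43.9) in WT. The 20 bases before the acceptor were C or T to a median of 60% in both libraries in the GT-AG segments, against 75% in both libraries in GT-AG introns with both forms annotated and 50% in both libraries in exitron-like segments with other ends. In GT-AG events with neither form annotated this median was 70% in both libraries. The HIF1A segment printed above starts with GTGGG and so counts among those without these letters, while the EIF4G2 and POLR3C segments start with GTGAG.

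By the rule, the spliced form of these segments has no annotated transcript in the tables, but some of the introns are already in GENCODE v29, an annotation of the same genome build that is not necessarily the release used for the files. The exact intron was found there for 139 segments in DCRT-KO (5.72%) and 118 in WT (4.64%). Among GT-AG segments this was 121 of 389 in DCRT-KO (31.1%) and 105 of 348 in WT (30.2%), and among those with other ends 6 of 2010 in DCRT-KO and 5 of 2128 in WT. Neither splice site was known to v29 in 51.7% of the GT-AG segments in DCRT-KO and 56.6% in WT, and in 98.8% of the other segments in both libraries. The words new intron therefore do not hold for all of them. The transcript named as keeping the segment held it within 1 exon of GENCODE v29 in 2368 cases in DCRT-KO and 2441 in WT, another v29 transcript did so for 31 in DCRT-KO and 35 in WT, and no v29 sequence could be read for 31 in DCRT-KO and 68 in WT.

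Direct repeats at the ends went with ends other than GT-AG. A repeat of at least 4 bases stood at 55.5% of the segments (53.5 to 57.5) in DCRT-KO and 57.2% (55.3 to 59.2) in WT, one of at least 6 bases at 24.4% in DCRT-KO and 24.2% in WT, and one of at least 8 bases at 7.09% in DCRT-KO and 7.23% in WT. A repeat of at least 4 bases was found among segments with other ends at 61.4% (59.2 to 63.5) in DCRT-KO and 62.5% (60.5 to 64.6) in WT, and among GT-AG segments 25.2% (21.0 to 29.8) in DCRT-KO and 24.7% (20.3 to 29.6) in WT. Introns with both forms annotated had such a repeat in 17.7% of DCRT-KO and 17.1% of WT cases. Among events with neither form annotated, those with other ends had it in 63.8% in DCRT-KO and 64.5% in WT. The GT-AG ones had it in 20.2% in DCRT-KO and 18.6% in WT. The repeats at other ends were therefore not particular to exitron-like segments. The median repeat of the exitron-like segments was 4 bases with other ends and 2 bases with GT-AG ends, in both libraries. In the HNRNPK segment printed above the repeat is 7 bases, in the ACTG1 segment 3, and in the EIF4G2 and POLR3C segments 1, while the HIF1A segment has none.

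**Figure D2:**
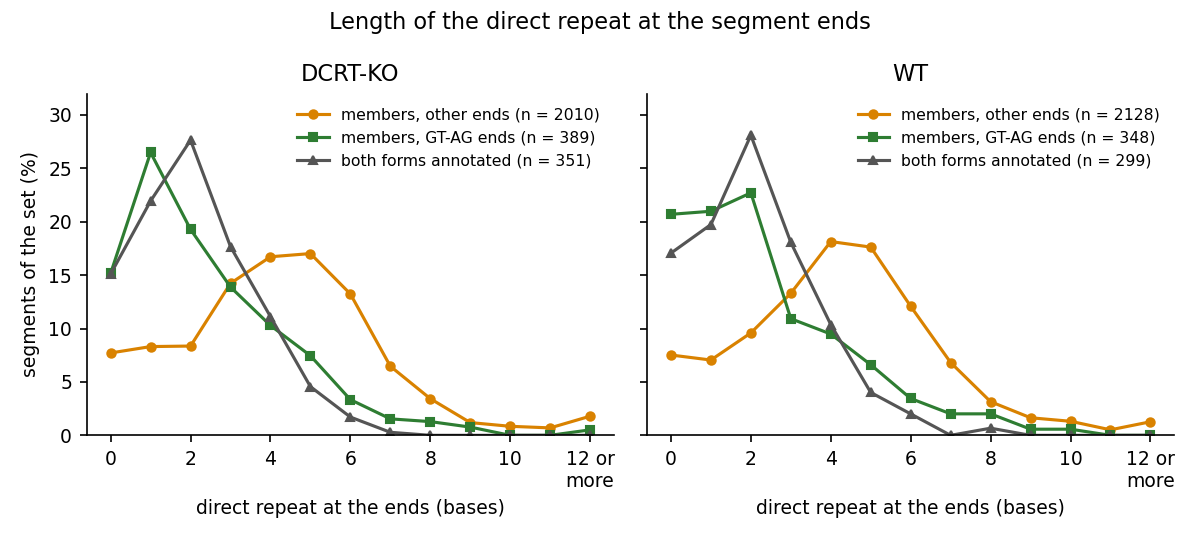
Percentage of segments (vertical axis) by the length in bases of the direct repeat at their ends (horizontal axis; the last point pools 12 or more), for DCRT-KO on the left and WT on the right. Orange circles are exitron-like segments with other ends, green squares those with GT-AG ends, and grey triangles introns with both forms annotated. The orange curves peak at 5 bases in DCRT-KO and at 4 in WT, the green and grey ones at 1 or 2.

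The 2 longest repeats were 205 and 107 bases at 2 overlapping segments of a non-coding C1orf174 transcript (chr1:3892282-3892465 and chr1:3892374-3892603). Both were listed in DCRT-KO alone, with 1 spliced isoform each. Over both lists 33 distinct segments in 21 genes had a repeat of at least 15 bases. Of these, 27 lay in coding sequence, every 1 of those 27 had a length divisible by 3, and 3 segments were listed in both libraries. The UBB segment printed above removes 76 codons of 230 with a repeat of 50 bases, the stop codon counted. UBB is built of near-identical units, and reads may be placed in more than 1 of them. In EIF3A, exon 19 gave segments of 60, 90 and 120 bases, with repeats of 47, 17 and 41 bases, and the one of 120 bases was listed in both libraries. EIF3A and UBB were singled out here after their values were seen.

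The segments were short. The median length was 95 bases in DCRT-KO (quartiles 67 and 175) and 94 in WT (66 and 177.25), against 285 in DCRT-KO and 278.5 in WT for introns with both forms annotated. GT-AG segments had medians of 128 bases in DCRT-KO and 122 in WT, and those with other ends 90 bases in both. The lengths of the segments with other ends began abruptly at 50 bases. Between 40 and 49 bases there were 17 GT-AG segments and 2 with other ends in DCRT-KO, and 19 GT-AG segments and 1 with other ends in WT. Between 50 and 59 bases there were 16 GT-AG segments and 301 with other ends in DCRT-KO, and 8 GT-AG segments and 337 with other ends in WT. The same step stood in retention events with neither form annotated, where segments with other ends numbered 0 between 40 and 49 bases and 199 between 50 and 59 bases in DCRT-KO, and 0 and 258 in WT. No length limit is given in the sources used here.

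About 3 in 4 of the segments lay within coding sequence. The share was 73.4% (71.5 to 75.1) in DCRT-KO and 74.7% (73.0 to 76.4) in WT. A further 8.67% in DCRT-KO and 7.55% in WT lay in 3′ UTRs, and 3.92% in DCRT-KO and 3.47% in WT lay in 5′ UTRs. The start or the end of the coding sequence was spanned by 5.92% in DCRT-KO and 5.25% in WT, and 8.13% in DCRT-KO and 9.01% in WT lay in non-coding transcripts. GT-AG ends stood at 11.7% (10.2 to 13.3) of coding segments in DCRT-KO and 11% (9.64 to 12.5) in WT. The share was highest in non-coding transcripts, with 45.6% (38.5 to 52.9) in DCRT-KO and 33.2% (27.0 to 39.8) in WT. In 5′ UTRs it was 20.2% (12.6 to 29.8) in DCRT-KO and 25.6% (16.8 to 36.1) in WT, where the interval overlaps that of non-coding transcripts. Among segments that span an end of the coding sequence it was 24.6% in DCRT-KO and 18.5% in WT. In 3′ UTRs it was 19.2% (14.1 to 25.3) in DCRT-KO and 12.8% (8.40 to 18.5) in WT, so in WT it did not differ there from coding sequence beyond the intervals. The exon around the segment measured 359 bases at the median in DCRT-KO and 337 in WT, and it was the last exon in 12.8% of cases in DCRT-KO and 13.8% in WT. Segments with other ends were richer in G and C than the rest of their exon in 71.0% of cases in DCRT-KO and 71.2% in WT, with medians of 60.3% in DCRT-KO and 60.5% in WT for the segment, and of 57.1% in DCRT-KO and 57.4% in WT for the rest of the exon. For GT-AG segments the same held in 53.0% of cases (47.9 to 58.0) in DCRT-KO and 57.2% (51.8 to 62.4) in WT.

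Coding segments kept the reading frame more often than the 1 in 3 that lengths without regard to codons would give. Their length was divisible by 3 in 901 of 1760 cases in DCRT-KO, or 51.2% (48.8 to 53.6), and in 942 of 1850 cases in WT, or 50.9% (48.6 to 53.2). These segments removed a median of 27 codons in both libraries. In non-coding transcripts the share was 30.8% (24.4 to 37.8) in DCRT-KO and 35.4% (29.2 to 42.1) in WT, in 5′ UTRs it was 31.9% in DCRT-KO and 38.4% in WT, and in 3′ UTRs 38.0% in DCRT-KO and 37.4% in WT. Among coding segments the intervals of the GT-AG ones overlapped those of the others, with 56.8% (49.7 to 63.7) in DCRT-KO and 55.4% (48.3 to 62.3) in WT, against 50.5% (47.9 to 53.0) in DCRT-KO and 50.4% (47.9 to 52.8) in WT for those with other ends. Coding segments of retention events with neither form annotated had shares of 49.8% (46.1 to 53.5) in DCRT-KO and 50.6% (47.2 to 54.0) in WT, so the excess was not particular to exitron-like segments.

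The share of frame-keeping coding segments was higher at longer end repeats. With a repeat of 0 or 1 base it was 40.8% (35.4 to 46.3) in DCRT-KO and 40.9% (35.4 to 46.6) in WT, which is still above 1 in 3. It was 49.5% in DCRT-KO and 48.3% in WT at 4 or 5 bases, and 58.4% in DCRT-KO and 58.5% in WT at 6 or 7 bases. At 8 to 11 bases it was 76.9% (67.8 to 84.4) in DCRT-KO and 79.8% (71.3 to 86.8) in WT, and at 12 bases or more it was 29 of 30 segments in DCRT-KO and 26 of 26 in WT. The steps were alike in both libraries, and each pair of intervals overlapped.

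**Figure D3:**
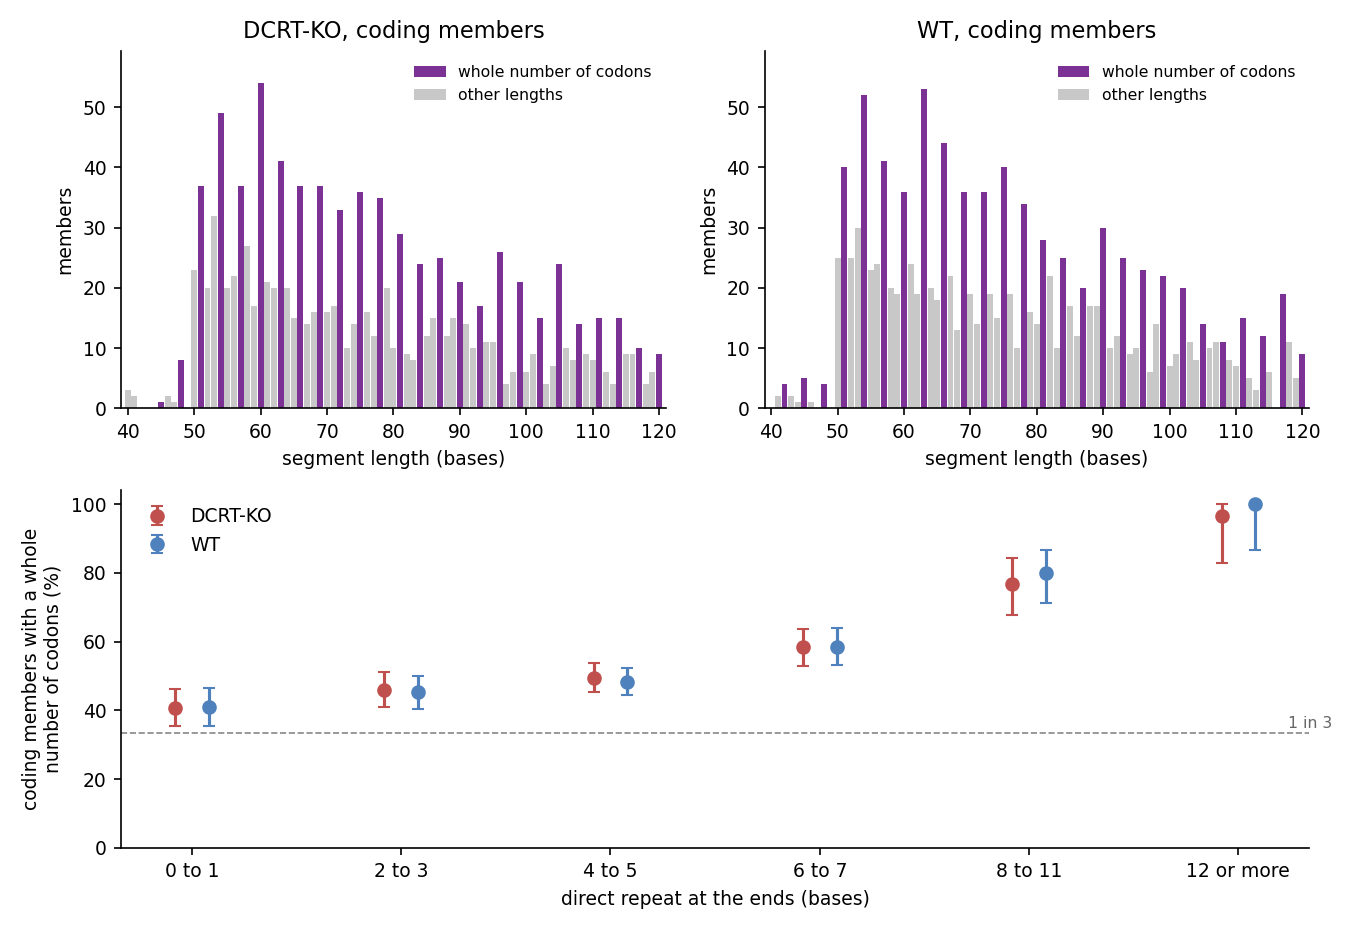
Top: number of coding exitron-like segments (vertical axis) by length from 40 to 120 bases (horizontal axis), DCRT-KO on the left and WT on the right, with lengths that are a whole number of codons in purple and other lengths in grey. Bottom: percentage of coding segments with a whole number of codons (vertical axis) by the length of the end repeat in bases (horizontal axis), DCRT-KO in red and WT in blue, with exact 95% intervals and a dashed line at 1 in 3. Few segments are shorter than 50 bases, the purple bars stand above their neighbours at most lengths, and the share reaches 96.7% in DCRT-KO and 100% in WT at repeats of 12 bases or more.

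Nearly every segment rested on 1 isoform. A lone library isoform carried the spliced form of 95.7% of segments (94.8 to 96.5) in DCRT-KO and 96.1% (95.3 to 96.9) in WT. In introns with both forms annotated, annotated transcripts carry the spliced form too. There, 1 library isoform stood beside them in 14.2% of DCRT-KO (10.9 to 18.1) and 9.01% of WT cases (6.21 to 12.5). The rule leaves the exitron-like segments without such transcripts, so at least 1 library isoform is required for them. The gap to introns with both forms annotated is thus partly built in. In events with neither form annotated, which have the same requirement, the spliced form had 1 isoform in 80.9% of DCRT-KO and 82.8% of WT cases. Exitron-like segments with GT-AG ends stood on 1 isoform in 87.9% of DCRT-KO and 89.7% of WT cases, and those with other ends in 97.5% in both libraries. Of the isoforms that skip a segment, 2519 of 2556 in DCRT-KO and 2625 of 2656 in WT skip 1 segment only. The retained form was also carried by an isoform of the library in 83.8% of DCRT-KO and 85.5% of WT cases, and among those cases by a median of 11 isoforms in DCRT-KO and 8 in WT.

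Few segments appeared in both lists. Of all positions, 176 distinct segments in 113 genes were shared, which made up 7.24% of the events (6.24 to 8.35) in DCRT-KO and 6.96% (5.999 to 8.02) in WT. Among segments with at least 2 spliced isoforms the share was 15.4% in DCRT-KO and 16.3% in WT. Where both ends could differ by up to 10 bases it was 11.8% in DCRT-KO and 11.3% in WT. Introns with both forms annotated were shared in 46.6% of DCRT-KO and 52.9% of WT cases. Events with neither form annotated were shared in 13.9% of DCRT-KO and 12.9% of WT cases. In that class it was 28.8% in DCRT-KO and 30.1% in WT with GT-AG ends, and 4.08% in DCRT-KO and 3.44% in WT with other ends. Exitron-like segments with GT-AG ends recurred in 16.5% of DCRT-KO cases (12.9 to 20.5) and 18.7% of WT cases (14.7 to 23.2), against 5.32% (4.38 to 6.40) in DCRT-KO and 5.03% (4.14 to 6.04) in WT for other ends. Part of that gap lies with introns known to v29: without them the shares were 11.2% (7.68 to 15.6) in DCRT-KO and 12.3% (8.49 to 17.2) in WT for GT-AG segments, and 5.24% in DCRT-KO and 4.95% in WT for other ends. Of the 176 shared segments, 64 had GT-AG ends and 107 other ends, 5 could not be read, and 122 lay in coding sequence, 70 of them with a length divisible by 3. A further 52 segments from DCRT-KO and 44 from WT stood in the other intron retention list under another class of annotation.

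The shared GT-AG segments with most spliced isoforms lay in genes of RNA processing and of other functions. RBM39, which encodes an RNA-binding splicing factor, had a segment of 226 bases (chr20:35740598-35740823, minus strand) in exon 2 of a non-coding transcript, spliced in 5 isoforms in DCRT-KO and 6 in WT. SRSF7 and SRSF1, both splicing factors of the SR family, had segments of 182 and 200 bases that span an end of the coding sequence, spliced in 3 and 2 isoforms in DCRT-KO and 2 and 2 in WT. The 149-base intron in the 3′ UTR of ACTG1 (chr17:81510330-81510478, minus strand) was spliced in 1 isoform in DCRT-KO and 7 in WT. A 136-base segment of ENG, which encodes the TGF-beta co-receptor endoglin, spans an end of the coding sequence and was spliced in 1 isoform in DCRT-KO and 6 in WT. OAZ1, which encodes an inhibitor of polyamine synthesis, had a 251-base segment in a non-coding transcript, spliced in 4 isoforms in each library. The OAZ1 and ENG segments had 0 retaining isoforms in both libraries, so their retained form rests on annotated transcripts alone. Retaining isoforms numbered 0 in DCRT-KO and 4 in WT for ACTG1, and 1 in DCRT-KO and 5 in WT for RBM39. For SRSF7 they numbered 5 in DCRT-KO and 3 in WT, and for SRSF1 1 in each library.

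The others of this group were CANT1, a nucleotidase gene, with 269 bases in the 3′ UTR, POLR3C with the 113 bases printed above, DCAF11, a ubiquitin ligase substrate receptor gene, with 150 bases in the 5′ UTR, and TEX10, which encodes a part of a ribosome maturation complex, with 288 coding bases. They were spliced in 2, 3, 2 and 1 isoforms in DCRT-KO, and in 3, 2, 2 and 3 isoforms in WT. In the same order, 1, 4, 2 and 11 isoforms retained them in DCRT-KO, and 3, 8, 3 and 2 in WT. Of the 10, all but the TEX10 segment are introns of GENCODE v29, and the donor of TEX10 is a v29 donor. The donor letters of these segments vary, and 2 of them show it.

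OAZ1 donor, 3 exon bases then 6 segment bases in capitals: tccGTGAGT
OAZ1 acceptor, last 2 segment bases in capitals: gcaccccctggacAGgat
ACTG1 donor: ttgGTATTT
ACTG1 acceptor: ctctgatctgtgcAGggt

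The 5 frame-keeping coding segments with GT-AG ends and most spliced isoforms lay in TEX10, EIF4G2, HIF1A, NCK1 and IGF2BP2. The TEX10 segment removes 96 codons of 930 from codon 141, and was retained in 11 isoforms in DCRT-KO and 2 in WT. The EIF4G2 segment removes 25 codons of 908 from codon 656, and its exon stayed whole in 83 isoforms in DCRT-KO and 41 in WT, against 2 spliced isoforms in DCRT-KO and 1 in WT. The HIF1A segment removes 28 codons of 828 from codon 211, with neither site in v29, and was spliced in 1 isoform in DCRT-KO and 2 in WT, against 19 retaining isoforms in each library. NCK1, which encodes an adaptor protein of receptor signalling, had a segment of 399 bases (chr3:136945753-136946151, plus strand) that removes 133 codons of 378, spliced in 1 isoform in DCRT-KO and 2 in WT. In IGF2BP2, which encodes an mRNA-binding protein, a segment of 132 bases (chr3:185689423-185689554, minus strand) that removes 44 codons of 600 was listed in WT alone, spliced in 3 isoforms and retained in 22. The EIF4G2 and NCK1 segments are v29 introns.

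Shared segments with other ends were led by HNRNPK. In its exon 11 segments of 132, 111 and 118 bases overlap one another, with ends GT-TG, AT-TG and TG-TA and repeats of 7, 6 and 6 bases. They were spliced in 3, 3 and 4 isoforms in DCRT-KO and in 5, 3 and 2 in WT, against 61 retaining isoforms in DCRT-KO and 39 in WT. The first removes 44 codons of 465 and the second 37, while 118 bases are no whole number of codons. The ACTG1 segment of 63 bases removes 21 codons of 376 and was spliced in 1 isoform in DCRT-KO and 3 in WT, against 92 retaining isoforms in DCRT-KO and 141 in WT. Shared segments whose ends could not be read lay in RPL8, PFDN5 and ZDHHC6 and, with 2 segments, in HSPD1, and all 5 are v29 introns.

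The segments were spread over many genes with 1 each and piled up in a few. Of 1119 genes with a segment in DCRT-KO 64.3% held 1, as did 61.9% of 1162 genes in WT. The 10 genes with most segments held 353 in DCRT-KO, or 14.5%, and 360 in WT, or 14.2%. Of the 1789 genes, 789 had more segments in DCRT-KO, which is 44.1%, 821 had more in WT, which is 45.9%, and 179 had equal numbers. The gene counts below have no error estimate, and a gene with more isoforms in a list has more chances to show a segment.

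ACTB and ACTG1, the cytoplasmic beta and gamma actins, held the most. ACTB had 59 segments and 130 isoforms in DCRT-KO, against 105 segments and 240 isoforms in WT, or 45.4 per 100 isoforms in DCRT-KO and 43.8 in WT. ACTG1 had 46 segments and 123 isoforms in DCRT-KO, against 107 segments and 205 isoforms in WT. The segments of ACTB per isoform were nearly alike in the libraries, and those of ACTG1 were fewer in DCRT-KO, with 37.4 per 100 isoforms against 52.2 in WT. GT-AG ends stood at 3 of the ACTB segments in DCRT-KO and 4 in WT, and at 4 of the ACTG1 segments in DCRT-KO and 6 in WT. The proteins of these genes are near-identical, and both genes have pseudogenes. Reads may be split between similar copies, which was not tested.

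HSPA8, which encodes the constitutive heat shock protein HSC70, separated the lists most towards DCRT-KO, with 50 segments and 179 isoforms there, against 4 segments and 82 isoforms in WT. The next genes in this direction were NCL, which encodes nucleolin, with 33 segments in DCRT-KO and 14 in WT, SLCO4A1, an organic anion transporter gene, with 15 in DCRT-KO and 0 in WT, ENO1, a glycolytic enolase gene, with 21 in DCRT-KO and 7 in WT, and EEF2, a translation elongation factor gene, with 22 in DCRT-KO and 10 in WT. The difference of 12 in EEF2 was tied with those of PKM, PABPC1 and PHGDH. SLCO4A1 had 53 isoforms in DCRT-KO and 0 in WT. In EEF2 the segments per 100 isoforms were 11.3 in DCRT-KO and 11.2 in WT, in NCL 28.0 in DCRT-KO and 22.6 in WT, in ENO1 13.8 in DCRT-KO and 6.80 in WT, and in HSPA8 27.9 in DCRT-KO and 4.88 in WT. HSPA8 has processed pseudogenes, and the placing of reads between copies was not tested.

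After the actins, the genes furthest towards WT were COL1A1, which encodes a chain of type I collagen, with 0 segments in DCRT-KO and 23 in WT, PPME1, a protein phosphatase methylesterase gene, with 0 in DCRT-KO and 14 in WT, and FBLN2, which encodes the matrix protein fibulin-2, with 2 in DCRT-KO and 15 in WT. COL1A1 had 1 isoform in DCRT-KO and 772 in WT, PPME1 had 7 in DCRT-KO and 86 in WT, and FBLN2 had 15 in DCRT-KO and 37 in WT. All 23 COL1A1 segments lay in coding sequence, 17 of them with a whole number of codons and 19 with an end repeat of at least 4 bases. Of the 14 PPME1 segments, 1 was coding. The other genes with many segments were PKM, which encodes pyruvate kinase, with 45 in DCRT-KO and 33 in WT, and HNRNPM, an hnRNP gene, with 34 in DCRT-KO and 26 in WT. HSP90AB1, a chaperone gene, had 21 in DCRT-KO and 26 in WT, PABPC1, the cytoplasmic poly(A)-binding protein gene, had 29 in DCRT-KO and 17 in WT, and HSPA5, the chaperone gene of the endoplasmic reticulum, had 14 in DCRT-KO and 18 in WT. Isoforms numbered 372 in DCRT-KO and 320 in WT for PKM, 71 in DCRT-KO and 50 in WT for HNRNPM, 159 in DCRT-KO and 132 in WT for HSP90AB1, 132 in DCRT-KO and 74 in WT for PABPC1, and 44 in DCRT-KO and 43 in WT for HSPA5.

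**Figure D4:**
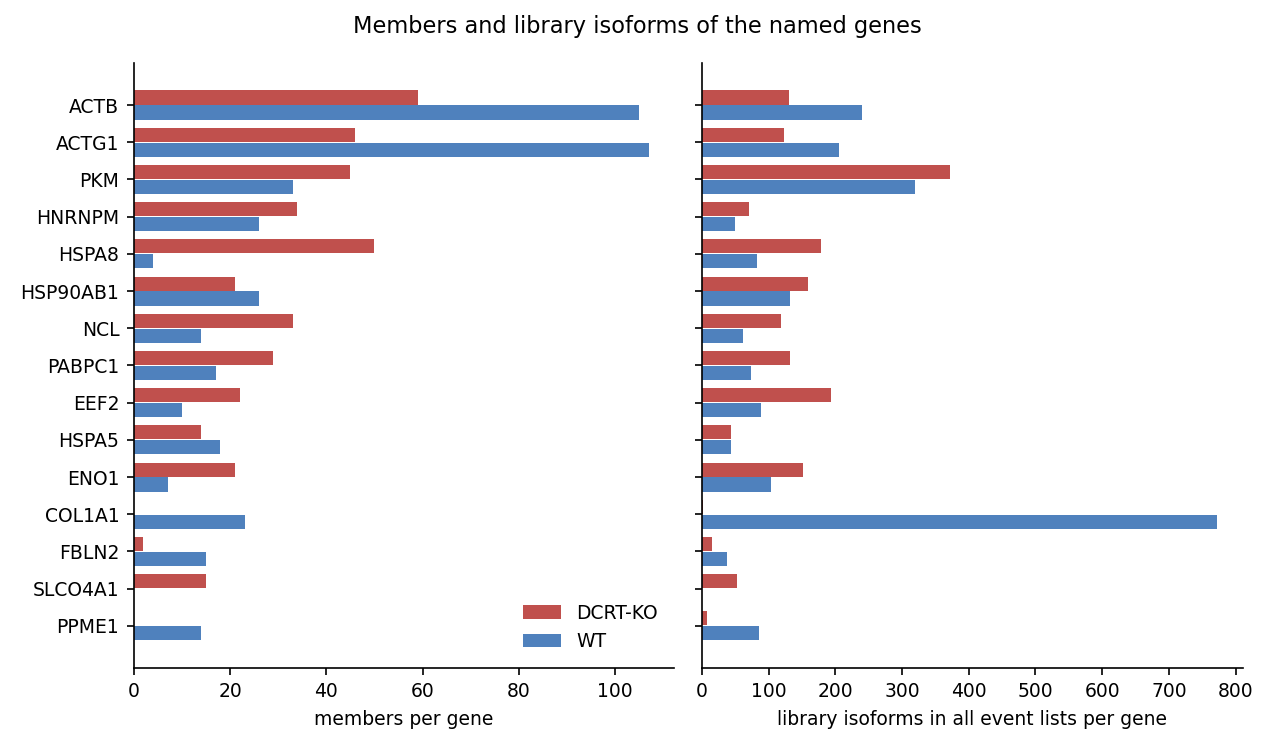
Number of exitron-like segments per gene (left, horizontal axis) and number of library isoforms of the gene in all event lists (right, horizontal axis) for 15 genes, DCRT-KO in red above WT in blue. Bars are single counts with no error. HSPA8 has 50 segments in DCRT-KO and 4 in WT, and COL1A1 has 1 isoform in DCRT-KO and 772 in WT.

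The segments of HNRNPM lay in 1 exon, and those of ACTG1 in several. All 34 HNRNPM segments in DCRT-KO and all 26 in WT lay in exon 15, between bases 1308 and 2068 of the annotated transcript in DCRT-KO and between 1314 and 1976 in WT. This exon encodes a long run of similar short repeats in the protein, and 27 of the DCRT-KO and 21 of the WT segments had a whole number of codons. They began at 30 different bases in DCRT-KO and 23 in WT, and 0 of them in DCRT-KO and 1 in WT had GT-AG ends. Of the ACTG1 segments, 38 of 46 in DCRT-KO and 53 of 107 in WT lay on the annotated transcript drawn in the map, and the others are not drawn. On it, 37 in DCRT-KO and 50 in WT lay in coding sequence, many of them overlapping, with 22 in DCRT-KO and 23 in WT in exon 3. All segments on this transcript had median lengths of 94.5 in DCRT-KO and 99 in WT. Of these, 24 in DCRT-KO and 38 in WT had a length divisible by 3, and 4 in DCRT-KO and 5 in WT had GT-AG ends.

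**Figure D5:**
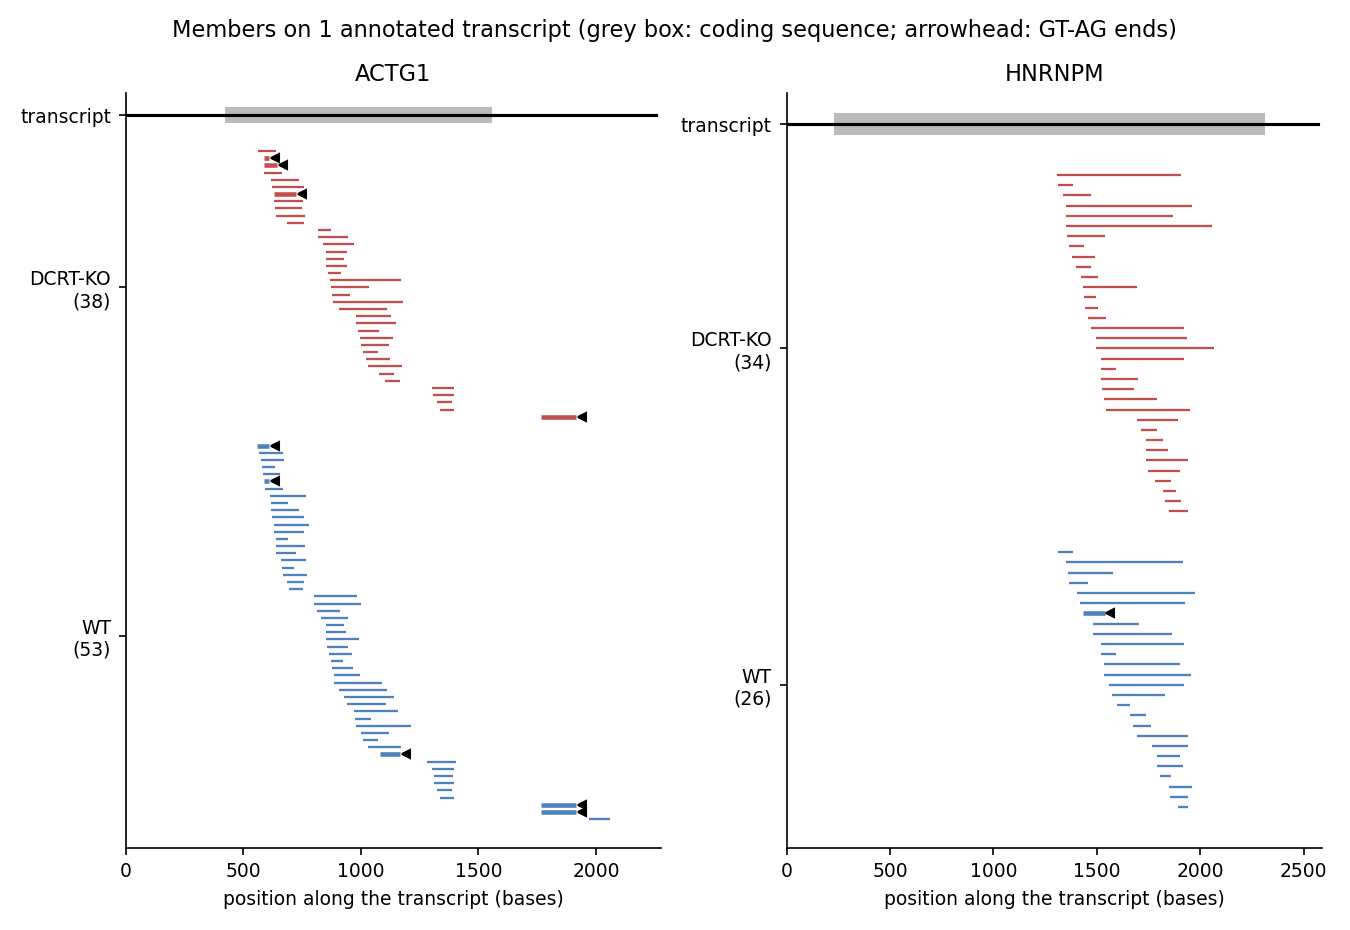
Exitron-like segments along 1 annotated transcript of ACTG1 (left) and of HNRNPM (right), by position in bases from the transcript start (horizontal axis), with each line 1 segment, DCRT-KO in red above WT in blue. Grey boxes are coding sequence, and thick lines with arrowheads have GT-AG ends. Of the ACTG1 segments drawn, 38 of 46 in DCRT-KO and 53 of 107 in WT, most lie in coding sequence, and the HNRNPM segments fall between bases 1308 and 2068.

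The number of segments in most gene groups went with the number of library isoforms. This is partly built in, because the isoforms that carry the segments are among those counted. Counts of genes with more segments in 1 library are to be read against the 44.1% of all genes with more in DCRT-KO and the 45.9% with more in WT. Of 16 extracellular matrix genes with a segment, 3 had more in DCRT-KO (18.8%) and 11 had more in WT (68.8%). They held 14 segments and 190 isoforms in DCRT-KO, against 62 segments and 1558 isoforms in WT, so segments per 100 isoforms were higher in DCRT-KO, at 7.37, than in WT, at 3.98. COL1A1 led, followed by THBS2, a thrombospondin gene, with 0 segments and 5 isoforms in DCRT-KO and 9 segments and 77 isoforms in WT. Of 10 fibroblast markers, COL1A1 and PDGFRA had an event of any type in DCRT-KO, and COL1A1, COL1A2, COL3A1, PDGFRB, POSTN and THY1 had one in WT. The collagens and POSTN among them belong to the matrix genes too, so the marker count is not independent of the matrix count. Of 22 cytoskeleton genes, 5 had more in DCRT-KO (22.7%) and 16 had more in WT (72.7%). They held 141 segments and 899 isoforms in DCRT-KO, against 277 segments and 1538 isoforms in WT, or 15.7 in DCRT-KO and 18.0 in WT per 100 isoforms, and were led by ACTB and ACTG1.

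Of 21 ribosomal protein genes, 15 had more in DCRT-KO (71.4%) and 4 had more in WT (19.0%). With 67 segments and 380 isoforms in DCRT-KO, against 31 segments and 179 isoforms in WT, the segments per 100 isoforms were nearly alike, 17.6 in DCRT-KO and 17.3 in WT. RPL8 led with 14 segments and 63 isoforms in DCRT-KO and 9 segments and 30 isoforms in WT, followed by RPL3 with 9 segments and 76 isoforms in DCRT-KO and 5 segments and 39 isoforms in WT. Of 18 translation factor genes, 12 had more in DCRT-KO (66.7%) and 6 had more in WT (33.3%). They held 126 segments and 1014 isoforms in DCRT-KO, against 80 segments and 600 isoforms in WT, or 12.4 in DCRT-KO and 13.3 in WT per 100 isoforms, and were led by PABPC1 and EEF2. Of 13 genes listed as respiratory, 10 had more in DCRT-KO (76.9%) and 3 had more in WT (23.1%). These genes held few segments, 17 on 186 isoforms in DCRT-KO against 7 on 117 isoforms in WT. Per 100 isoforms this was 9.14 in DCRT-KO and 5.98 in WT. They were led by SLC25A5, with 5 segments and 11 isoforms in DCRT-KO and 1 segment and 10 isoforms in WT. SLC25A5 is an ADP/ATP carrier gene and no part of the respiratory chain itself. NDUFV1, a complex I subunit gene, followed with 2 segments and 25 isoforms in DCRT-KO and 1 segment and 15 isoforms in WT.

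The shares of the other groups lay nearer to those of all genes or rested on few genes. Of 35 splicing factor genes, 19 had more in DCRT-KO (54.3%) and 13 had more in WT (37.1%), with 11.4 in DCRT-KO and 11 in WT segments per 100 isoforms. They were led by HNRNPM and by HNRNPK, with 9 segments and 95 isoforms in DCRT-KO and 8 segments and 70 isoforms in WT. Of 23 chaperone genes, 11 had more in each library (47.8%), with 13.8 in DCRT-KO and 11.3 in WT segments per 100 isoforms, led by HSPA8 and HSP90AB1. Of 12 glycolysis genes, 7 had more in DCRT-KO (58.3%) and 4 had more in WT (33.3%), with 10.9 in DCRT-KO and 8.78 in WT segments per 100 isoforms, led by PKM and ENO1. Of 29 genes of dilated cardiomyopathy, 6 had an intron retention event, and 3 of these 6 held a segment. Over all genes, 1789 of 4726 with an intron retention event held one. Of the 3 genes, 1 had more in DCRT-KO and 2 had more in WT, with 5 segments in each library. VCL, which encodes vinculin, had 3 segments and 29 isoforms in DCRT-KO and 4 segments and 33 isoforms in WT, and BAG3, a co-chaperone gene, had 2 segments and 8 isoforms in DCRT-KO and none of either in WT. Of 11 genes that hold an exon under PTBP1 control, 4 had more in DCRT-KO (36.4%) and 6 had more in WT (54.5%), with 8.24 in DCRT-KO and 8.61 in WT segments per 100 isoforms. PKM led, followed by EIF4G2 with 6 segments and 112 isoforms in DCRT-KO and 3 segments and 58 isoforms in WT. PTBP1 itself, the splicing regulator that the series title links to DCRT, held 4 segments and 33 isoforms in DCRT-KO and 1 segment and 21 isoforms in WT, of which 0 segments were coding and 0 had GT-AG ends.

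The sizes of the lists give the only view of depth. The DCRT-KO library had 42783 events and 54197 isoforms over all event types, and the WT library had 35307 events and 49374 isoforms. Set against the cardiomyocyte label, of 12 defining cardiomyocyte genes 0 had an event in DCRT-KO and 1, NPPB, had one in WT. The epithelial keratins KRT8 and KRT18 had events in both libraries, 2 of 5 epithelial markers, and 0 of 4 endothelial markers had one in either. A gene without an event may still be expressed, so these counts are no measure of expression.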

How the data were processed

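AC16 cells with DCRT knocked out and unedited cells were compared, 1 library each, grouped by genotype label. The authors deposited text tables with 1 row per splicing event: per the file headers, these hold a chromosome, both forms' isoforms, a gene, a structure code and splice positions. These entries are codes and positions with no count, level or score. The submitters' processing notes name minimap2 as a tool and hg38 as the build. The design text names PacBio long reads while the labels' protocols describe Illumina libraries, and the sources used here do not give the isoform builder, event caller, annotation release or filters. Sequencing depth is unknown.

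Each row was 1 event. Segments were placed in GENCODE v29 transcripts of the same assembly, and their end bases, direct repeats (bases by which the junction can be moved without changing the RNA), place and length were read with Python 3.11.15 and pandas 2.3.3. The repeat search was tested on simulated sequences. Intervals are exact (Clopper-Pearson, scipy 1.17.1). The regions, the 10 gene lists and the named genes were chosen with earlier results of these data known. Named are the 10 genes with most segments, the 5 with the largest difference in each direction, the 2 with most segments of each list, the 10 shared GT-AG segments, the 5 frame-keeping coding GT-AG segments and the 5 shared segments with other ends with most spliced isoforms, and the 3 longest repeats. A few of the segments chosen this way are not reported here.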

Additional observations from a re-analysis of the deposited data

How the results depend on the processing

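Of 98 alternative values, 57 stayed within the exact interval of the value reported and 41 moved outside it. The 57 include values that could not move. In both libraries 0 segments lacked a gene identifier, so keeping only those with one could change the list shares alone. Without the 10 genes with most segments, exitron-like segments were 18.0% in DCRT-KO and 18.6% in WT of the retention lists, GT-AG ends stood at 17.8% in DCRT-KO, and 6.07% in DCRT-KO and 5.77% in WT of segments were shared. With at least 2 library isoforms on the spliced form, 2.80% in DCRT-KO and 2.76% in WT of the lists were left, with GT-AG ends at 48.0% in DCRT-KO and 40% in WT, an end repeat at 51.1% in WT, a length divisible by 3 in 38.5% in DCRT-KO, coding sequence in 60.2% in DCRT-KO and 62.2% in WT, and sharing in 15.4% in DCRT-KO and 16.3% in WT. Where the retained form was also in a library isoform, the list shares were 17.6% in DCRT-KO and 18.4% in WT, GT-AG ends 14.3% in DCRT-KO and 12.4% in WT, an end repeat 59.2% in WT and coding sequence 81.1% in DCRT-KO and 82.2% in WT. Without introns of GENCODE v29, an alternative chosen after seeing the data, the list shares were 19.0% in DCRT-KO and 19.8% in WT, GT-AG ends 11.8% in DCRT-KO and 10.3% in WT, an end repeat 57.5% in DCRT-KO, coding sequence 76.5% in DCRT-KO and 77.3% in WT, sharing 5.89% in DCRT-KO and 5.56% in WT, and support by 1 isoform 97.1% in DCRT-KO and 97.2% in WT. Counting GC-AG and AT-AC with GT-AG gave 24.9% in DCRT-KO and 22.7% in WT. Repeats of at least 6 bases stood at 24.4% in DCRT-KO and 24.2% in WT, and of at least 8 bases at 7.09% in DCRT-KO and 7.23% in WT. Allowing 10 bases at both ends, 11.8% in DCRT-KO and 11.3% in WT of segments were shared. The cause of these shifts was not tested where the alternative does not itself fix it. No paired analysis was possible because no result came from a test and each genotype has 1 library.

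Support by isoform number, not reads, and 1 library per genotype limit every value. A segment missing from a list was not detected there.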
